A study of Harpegnathos saltator with 27 samples.

Results

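The genes described here had fewer transcripts after 20-hydroxyecdysone (20E) than after solvent in both the brain and the fat body of workers of the ant Harpegnathos saltator. They number 46 of the 20659 identifiers in the count table. They were selected on the measured values of the 20E and EtOH libraries of those 2 tissues. In each tissue the highest 20E value had to lie below the lowest EtOH value, the EtOH mean had to reach 2 CPM (counts scaled to the library's total), and the ratio of EtOH mean to 20E mean, with 0.5 CPM added to each, had to be at least 1.5. The 20E differences in brain and fat body are therefore the basis of the choice and are given as a description, without a test. The ovary libraries and the libraries of ants given a juvenile hormone analog (JHA) played no part in the choice.

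Workers received 500 ng of 20E or 500 ng of JHA, which is methoprene, by injection into the abdomen in Hank's balanced salt solution (HBSS). Control workers received about 1 µL of HBSS with 10% ethanol (EtOH), which is called solvent here. Tissues were collected 12 hours after injection. They were the non-visual brain (brain below), the abdominal fat body and the ovaries, each with 3 libraries of polyadenylated RNA per treatment, 27 in all. A single dose and a single time were sampled, and the labels give no age and no reproductive state of the workers.

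20E is the active ecdysteroid of insects. It binds a nuclear receptor formed by the ecdysone receptor and ultraspiracle, which both activates and represses genes. Juvenile hormone, which methoprene imitates, acts through the receptor Methoprene-tolerant and its target Krüppel homolog 1. In adult insects both hormones take part in reproduction, the fat body being the main source of yolk protein and the ovary a source of ecdysteroids. Harpegnathos workers that lose their queen can turn into egg-laying gamergates. Of the 20659 identifiers, 0 matched a table of 14329 annotated genes of this species, so the genes are given by identifier and no role is stated for any of them.

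Gene counts per library ran from 8.74 to 13.4 M (mega) for brain, from 13.1 to 21.6 M for fat body, and from 9.74 to 17.4 M for ovary. No marker could be matched by name, so the tissues were checked with tissue-enriched genes. These were at least 8 times more abundant in 1 tissue than in each of the others under all 3 treatments. They also had at least 10 CPM in that tissue. Of these, 744 were brain-enriched, 150 fat-body-enriched and 210 ovary-enriched. Some libraries stood apart within their tissue. On the first principal component of brain (42.0% of the variance), EtOH replicate 3 lay at 32.2 and JHA replicate 1 at 34.1, with the others between -21.5 and 0.236. In ovary (55.4% of the variance), JHA replicate 1 lay at 62.8 and 20E replicate 3 at 17.5, with the others between -23.2 and 2.09. Ovary-enriched genes took 3.55% and 4.40% of the counts of these 2 ovary libraries and 6.26 to 7.49% in the other 7. The series' design gives 3 ants per treatment, so p-values measure the spread between ants, and an ant may have given all 3 of its tissues. The brain and fat body criteria may then have been met in the same ants.

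In brain the EtOH mean of the 46 genes was a median of 2.00 times the 20E mean, with 0.5 CPM added to each (range 1.50 to 4.18), and in fat body 2.41 times (range 1.57 to 10.5). The ratio was larger in fat body for 36 genes and in brain for 10. Both ratios reached 2 in 18 genes and 3 in 2 genes. In bulk tissue, fewer cells of a type and less RNA per cell cannot be told apart. The 46 genes together took 0.205 to 0.283% of the counts of 20E brains, 0.373 to 0.411% of JHA brains and 0.397 to 0.434% of EtOH brains. In fat body they took 0.561 to 0.680% with 20E, 0.955 to 1.11% with JHA and 1.29 to 1.69% with EtOH.

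The criteria were met by 329 genes in brain and by 392 in fat body, so the 46 that met them in both are 14.0% of the brain list and 11.7% of the fat body list. Among the 7960 genes with at least 2 CPM under EtOH in both tissues, the brain criteria were met by 192 (2.41%) and the fat body criteria by 361 (4.54%). Of those the 46 make up 24.0% and 12.7%. Opposite directions, by the same criteria, were met by 3 genes lower with 20E in brain and higher in fat body, and by 9 the other way. A mirrored rule, higher with 20E in both tissues, was met by 76 genes.

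**Figure D1:**
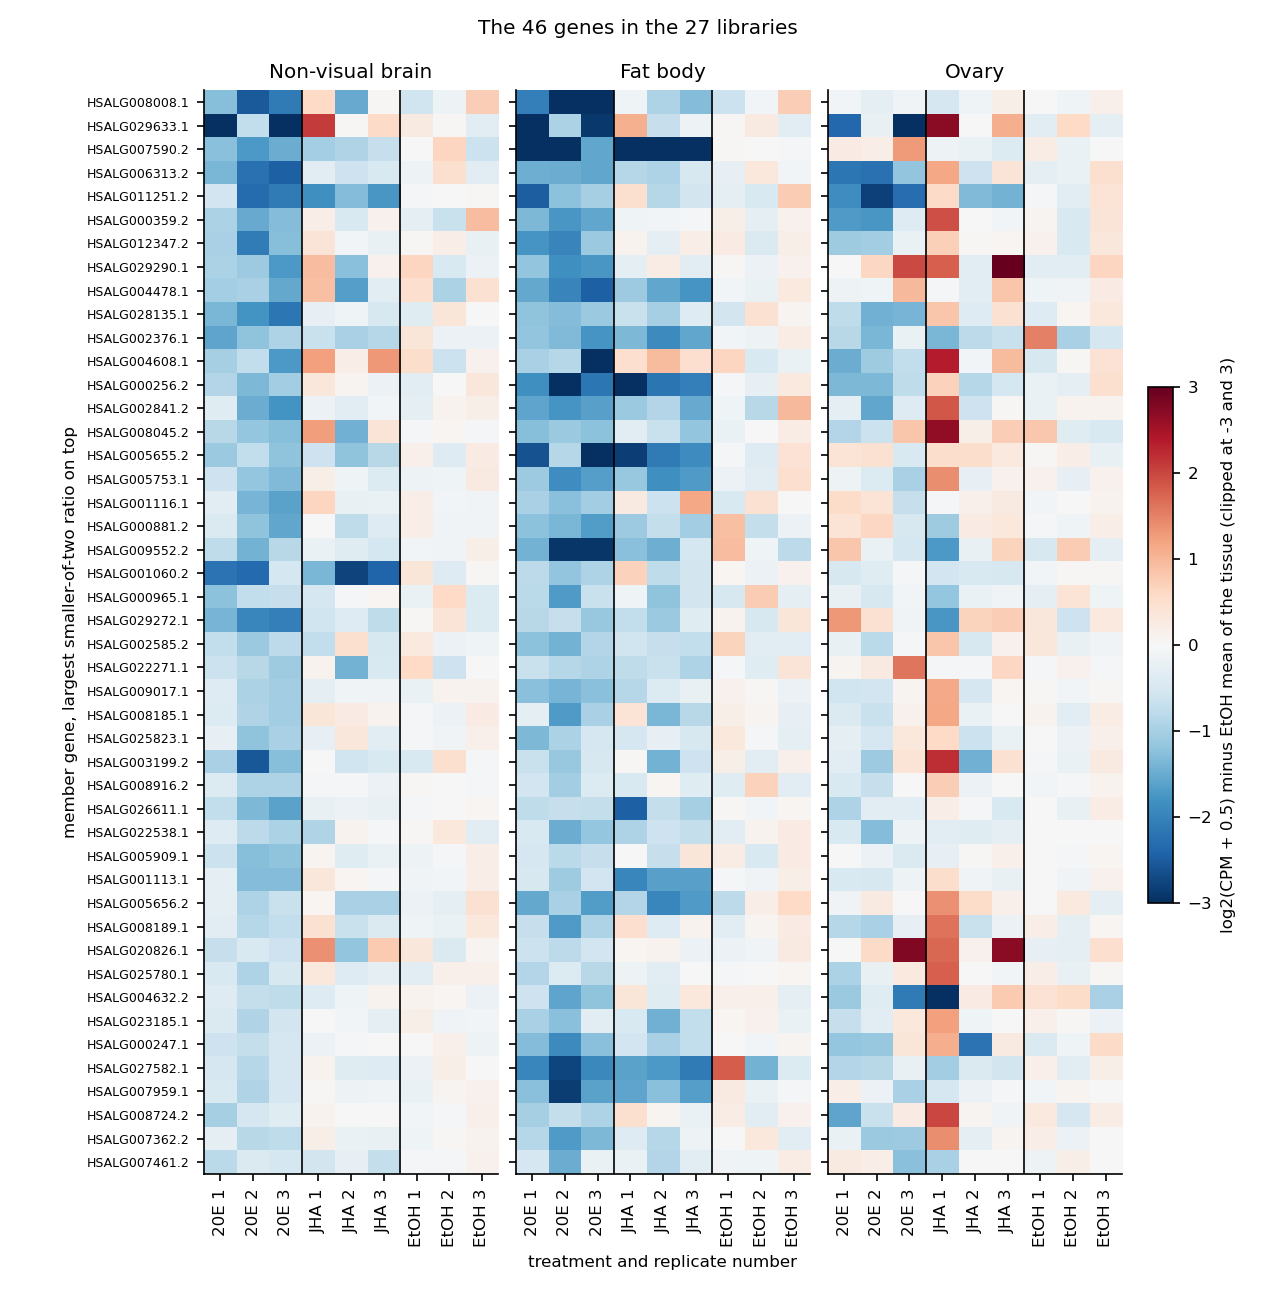
Log2(CPM + 0.5) of each of the 46 genes (down the page, largest smaller-of-both ratio on top) in each of the 27 libraries (across, by tissue and then 20E, JHA and EtOH), minus the EtOH mean of the same tissue. Blue is below and red above that mean, and colours stop at -3 and 3. The blue 20E columns of brain and fat body follow from the selection. The ovary columns and the JHA columns were not used in it, and ovary JHA replicate 1 is the highest of the JHA ovaries for 27 of the 46 genes.

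HSALG008008.1 had the largest ratio in fat body. It stood at 73.6, 5.81 and 14.0 CPM in 20E fat bodies, 282, 161 and 124 CPM in JHA fat bodies and 195, 289 and 514 CPM in EtOH fat bodies. Replicate 1 was the highest of the 20E libraries, and the JHA and EtOH libraries overlapped. In brain the same gene was at 1.65, 0.404 and 0.701 CPM with 20E, 7.33, 1.32 and 4.81 CPM with JHA and 2.95, 4.18 and 8.18 CPM with EtOH. Its ratios of EtOH to 20E were 3.95 in brain and 10.5 in fat body. In ovary its level was near 1 CPM under all treatments, at 1.12 ± 0.131 CPM with 20E, 1.16 ± 0.379 CPM with JHA and 1.31 ± 0.175 CPM with EtOH (mean ± SD, n = 3 each).

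HSALG029633.1 was the other gene with both ratios above 3, at 4.18 in brain and 3.95 in fat body. In 20E brains it had 0, 4.04 and 0 CPM, against 8.68, 7.32 and 5.62 CPM in EtOH brains. In 20E fat bodies it had 0, 1.68 and 0.0616 CPM, against 3.80, 4.59 and 2.90 CPM in EtOH fat bodies. The 20E level thus rested on replicate 2 in both tissues, with 0 or nearly 0 in the other two. HSALG006313.2 and HSALG028135.1 had larger ratios in brain than in fat body, at 3.96 and 3.41 in brain and 2.87 and 2.40 in fat body. HSALG027582.1 had a ratio of 1.53 in brain and 6.99 in fat body. Its fat body ratio rested on 1 solvent library, at 0.479, 0.0646 and 0.493 CPM with 20E and 12.9, 0.918 and 2.37 CPM with EtOH.

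Averaged over all 27 libraries, the highest CPM of the 46, a scale not divided by gene length, belonged to HSALG008189.1 and HSALG000881.2. HSALG008189.1 had 1340.3, 664 and 1135 CPM in 20E fat bodies, against 1716, 2291 and 2565 CPM in EtOH fat bodies, and 163, 113 and 124 CPM in 20E brains, against 189, 179.8 and 256.19 CPM in EtOH brains. HSALG000881.2 had 1249, 1147 and 917 CPM in 20E fat bodies, against 5470.1, 1805 and 2588 CPM in EtOH fat bodies. Of its fat body libraries EtOH replicate 1 was the highest. At the other end, 13 of the 46 genes had fewer than 10 reads in at least 1 of the 12 libraries of the choice, so counting error weighs on their values.

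Just inside the ratio limit lay HSALG007362.2, with ratios of 1.51 in brain and 2.43 in fat body, and HSALG007461.2, with 1.502 and 1.57. Just outside lay HSALG006513.2, with 2.59 in brain and 1.49995 in fat body, and HSALG022206.1, with 1.49 and 1.59. With the same separation of libraries and the same minimum but no limit on the ratio, 109 genes qualified. The first 20E replicate was the highest of the 3 in brain for 35 of the 46 genes, and without 20E replicate 1 in both tissues the criteria were met by 126 genes. Without brain EtOH replicate 3, which stood apart, 46 genes qualified, 38 of them among the 46 described.

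Levels of the 46 genes differed between tissues. The EtOH means spanned 2.17 to 1040 CPM in brain, with a median of 20.8 CPM, and 2.03 to 3288 CPM in fat body, with a median of 62.3 CPM. In ovary, which the choice did not use, they spanned 0.0255 to 299 CPM, with a median of 17.1 CPM and 13 genes under 2 CPM. The tissue distribution was tested in the JHA ants, whose libraries the choice did not use, in a fit of all 27 libraries with edgeR's quasi-likelihood test and Benjamini-Hochberg adjustment over 13367 genes. The fit treats the tissues of an ant as independent. The choice required at least 2 CPM under EtOH in brain and in fat body, but set no minimum in ovary. The 13367 genes tested met no such requirement. Tissue levels of the 46 genes were thus partly set by the choice, and the shares below are a description. With edgeR brain was above fat body in 10 of the 46 genes, where 39.6% of all genes tested were, and below it in 25, where 29.8% of all genes were. The median log2 fold change of brain against fat body was -0.91 for the 46 genes and 0.27 for all genes. The fit rescales library sizes (TMM), which the CPM given here do not. By CPM every brain lay above every fat body in 24 of the 46 (10178 of 13367 genes) and below in 18 (1204 genes). HSALG005753.1, one of the 25, had a mean of 63.7 CPM in JHA brains and 33.4 CPM in JHA fat bodies. The direction between brain and fat body thus depended on the scale for part of the genes. Ovary was above brain in 12 (31.6% of all genes) and below it in 20 (34.1% of all genes). By CPM every JHA ovary lay above every JHA fat body in 12 (9205 of 13367 genes) and below in 16 (938 genes). With edgeR ovary was above fat body in 8 (33.7% of all genes) and below it in 29 (26.9% of all genes), with a median of -1.66. Without ovary JHA replicate 1 that median was -2.07, and the one of ovary against brain was -1.17 in place of -0.53.

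HSALG029272.1 and HSALG022538.1 leaned most towards brain and met the definition of brain-enriched genes. The log2 fold changes between tissues below are on edgeR's rescaled library sizes, so they differ from the ratios of the CPM beside them. HSALG029272.1 had 175, 199.9 and 156 CPM in JHA brains, against 1.06, 0.696 and 1.51 CPM in JHA fat bodies (log2 fold change 5.66, SE 0.57, adjusted p = 1.28e-08 with edgeR). With 20E its brain level was 76.8 ± 20.0 CPM, against 270.4 ± 74.6 CPM with EtOH (n = 3 each). HSALG022538.1 had 48.3, 98.1 and 88.5 CPM in JHA brains, against 0.807, 1.11 and 1.01 CPM in JHA fat bodies (log2 fold change 4.59, SE 0.41, adjusted p = 1.72e-09 with edgeR). In JHA ovaries HSALG022538.1 had 0.881, 0.824 and 0.924 CPM. HSALG004632.2 and HSALG000359.2 had the largest fold changes of ovary over brain among the 46, with 15.2, 158 and 228 CPM and 136, 35.3 and 33.3 CPM in JHA ovaries and 3.66, 4.45 and 5.38 CPM and 3.13, 1.82 and 2.98 CPM in JHA brains. Their log2 fold changes of ovary against brain were 4.94 (SE 0.70) and 4.67 (SE 0.53), each passing with edgeR. HSALG000965.1 had the largest fold change of ovary over fat body, at 38.0, 73.9 and 79.5 CPM in JHA ovaries, against 1.92, 0.650 and 1.33 CPM in JHA fat bodies (log2 fold change 3.99, adjusted p = 1.76e-07 with edgeR). HSALG027582.1 was at 13.2, 20.6 and 18.7 CPM in JHA ovaries, against 0.745, 0.650 and 0.379 CPM in JHA fat bodies (log2 fold change 3.18, adjusted p = 0.000167 with edgeR).

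Fat-body-enriched genes made up 9 of the 46, which were HSALG000881.2, HSALG002376.1, HSALG004478.1, HSALG004608.1, HSALG008008.1, HSALG008045.2, HSALG020826.1, HSALG022271.1 and HSALG029290.1. HSALG029290.1 had 1437, 2013 and 1384 CPM in JHA fat bodies, and 29.7, 6.07 and 16.7 CPM in JHA brains (log2 fold change of brain against fat body -8.28, adjusted p = 7.23e-08 with edgeR). HSALG022271.1 had 177, 190.4 and 158 CPM in JHA fat bodies, 4.11, 1.11 and 2.63 CPM in JHA brains and 0, 0 and 3 reads in JHA ovaries. HSALG004478.1 had 395, 284 and 246 CPM in JHA fat bodies and 1, 0 and 6 reads in JHA ovaries.

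For these 9 genes the brain level was a small share of the fat body level, as the definition of fat-body-enriched genes requires. That share was 1.07 to 7.62% with 20E (median 1.28%), 1.09 to 8.51% with JHA (median 2.21%) and 0.884 to 5.11% with EtOH (median 1.33%). For the other 141 fat-body-enriched genes the medians were 1.71%, 2.05% and 1.76%. The other 141 took 0.591 to 0.825% of the counts of 20E brains, 0.405 to 1.01% of JHA brains and 0.574 to 0.922% of EtOH brains, so the treatments overlapped. Of these, 110 had at least 2 CPM in EtOH brains, and their median ratio of 20E to EtOH was 0.878 in brain (79 of 110 below 1) and 0.914 in fat body (69 of 110 below 1). Fat body RNA in the brain samples as a source of the brain values of the 9 genes was not tested.

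**Figure D2:**
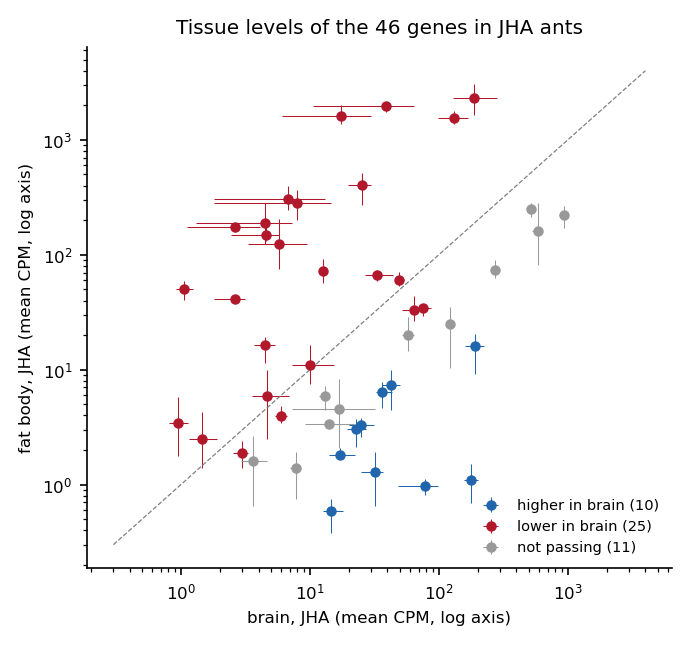
Mean CPM of the 46 genes in JHA brains (across) and JHA fat bodies (up), both on log axes, with bars from the lowest to the highest of 3 libraries and a dashed line of equal CPM. Blue marks the 10 genes higher in brain and red the 25 lower in brain at an adjusted p under 0.05 (edgeR), and grey the 11 that did not pass. The colours follow edgeR's rescaled library sizes and the axes do not. Some red genes, such as HSALG005753.1, therefore lie on the side of higher brain CPM.

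The ovary was the tissue outside the choice in which the response to 20E could be followed. With 20E, 35 of the 46 genes had a lower mean than with EtOH, but none passed edgeR's quasi-likelihood test after Benjamini-Hochberg adjustment, as was so for all 11418 genes tested in ovary (0%). The test covered 41 of the 46. The other 5, HSALG002376.1, HSALG004478.1, HSALG005656.2, HSALG007590.2 and HSALG022271.1, had at most 1.24 CPM in any ovary group mean. A gene that is low with 20E enters the test through the other treatments, so counts over the 41 are a description. Of the 41, 34 had a log2 fold change below 0, with a median of -0.40, against 5555 of 11418 genes below 0 and a median of 0.006 over all genes. At an unadjusted p under 0.05 there were 10 of the 41, all lower with 20E, where 1.35% of all genes were lower at that level. In 10 of the 41 every 20E library lay below every EtOH library, where 3.98% of all genes did, and in 0 of the 41 every 20E library lay above (5.68% of all genes).

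The number of calls in ovary turned on the libraries that stood apart. JHA replicate 1 is in neither group compared, and enters through the estimate of spread and the gene filter that all ovary libraries share. Without 20E replicate 3 and JHA replicate 1, 10 of 39 genes passed with edgeR, all lower with 20E, where 2.25% of 11436 genes passed as lower. The median over the 39 was then -0.63, with 31 of 39 below 0. At an unadjusted p under 0.05 with edgeR there were 22 of the 39, 18 of them lower with 20E and the others higher. Of all 11436 genes, 2655 reached that level in either direction. With all 9 libraries and limma voom with library weights, the same 10 genes passed, where 2.33% of all genes passed as lower. By limma voom 24 of 41 had an unadjusted p under 0.05, 21 of them lower with 20E and the others higher. Of all 11418 genes, 2412 reached that level in either direction. DESeq2 called 2 of the genes, both lower with 20E (0.123% of all genes). Without 20E replicate 3 alone edgeR called 0, as was so for all 11574 genes tested, and the median over 42 of the genes was also -0.63. These 10 genes are named after their values were seen. They were HSALG006313.2, HSALG011251.2, HSALG000359.2, HSALG000256.2, HSALG012347.2, HSALG008189.1, HSALG027582.1, HSALG008916.2, HSALG001113.1 and HSALG001060.2, in order of the fall without both libraries, from -3.71 to -0.45 on the log2 scale. Since an ant may have given all 3 tissues, the ovary libraries need not come from ants outside the choice.

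HSALG006313.2 had 0.231, 0.195 and 0.950 CPM in 20E ovaries, 6.85, 1.65 and 3.80 CPM in JHA ovaries and 2.17, 2.38 and 4.10 CPM in EtOH ovaries. Every 20E library lay below every library of the other treatments. The log2 fold change against EtOH was -2.73 (SE 0.71, unadjusted p = 0.00394, adjusted p = 0.918 with edgeR), and it passed in 3 of 13 alternative analyses. HSALG011251.2 had 1.44, 0.519 and 0.950 CPM with 20E, 10.1, 2.31 and 2.16 CPM with JHA and 6.30, 5.06 and 8.90 CPM with EtOH. Its log2 fold change was -2.81 (SE 0.66, unadjusted p = 0.00215, adjusted p = 0.744 with edgeR), and it also passed in 3 of 13. In brain both genes showed the same separation by the choice, HSALG006313.2 with 2.95, 1.41 and 1.14 CPM in 20E brains, against 7.61, 12.0 and 6.60 CPM in EtOH brains, and HSALG011251.2 with 3.47, 0.706 and 0.876 CPM in 20E brains, against 5.28, 5.45 and 5.62 CPM in EtOH brains.

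HSALG000359.2 had 10.6, 10.1 and 27.1 CPM in 20E ovaries, against 37.5, 25.5 and 46.2 CPM in EtOH ovaries, and the highest 20E value, replicate 3, overlapped with EtOH. In fat body, where it was chosen, it had 17.0, 12.7 and 14.4 CPM with 20E, against 49.0, 35.7 and 47.6 CPM with EtOH. HSALG000256.2 had 113, 113 and 169.7 CPM in 20E ovaries, against 251, 239 and 407 CPM in EtOH ovaries, and the treatments did not overlap. HSALG012347.2 had 6.34, 6.48 and 12.0 CPM in 20E ovaries, against 15.1, 9.89 and 17.6 CPM in EtOH ovaries, with 20E replicate 3 above EtOH replicate 2. HSALG027582.1 had 14.9, 15.4 and 23.9 CPM in 20E ovaries, against 31.0, 21.8 and 31.7 CPM in EtOH ovaries, where 20E replicate 3 lay between EtOH values. In 28 of the 46 genes replicate 3 was the highest of the 20E ovaries.

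A few genes had a higher mean with 20E in ovary. HSALG020826.1 had 0.576, 1.10 and 6.81 CPM in 20E ovaries, against 0.406, 0.383 and 1.02 CPM in EtOH ovaries (log2 fold change 2.14, SE 1.08, adjusted p = 1 with edgeR). HSALG029290.1 had 2, 7 and 25 reads in 20E ovaries, against 0, 0 and 6 reads in EtOH ovaries (adjusted p = 1 with edgeR). Both are fat-body-enriched, and in both the 20E mean rested on replicate 3. Fat-body-enriched genes took 1.36% of the counts of that library, 0.909% of ovary JHA replicate 1 and 0.540 to 0.757% of the other 7 ovary libraries. Their part in these values was not tested. In other genes with a higher 20E mean, replicate 3 was the lowest 20E ovary. These were HSALG005655.2, HSALG001116.1, HSALG000881.2, HSALG009552.2 and HSALG029272.1. HSALG001116.1 had 37.5, 34.1 and 15.7 CPM in 20E ovaries, against 23.8, 25.3 and 27.3 CPM in EtOH ovaries.

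**Figure D3:**
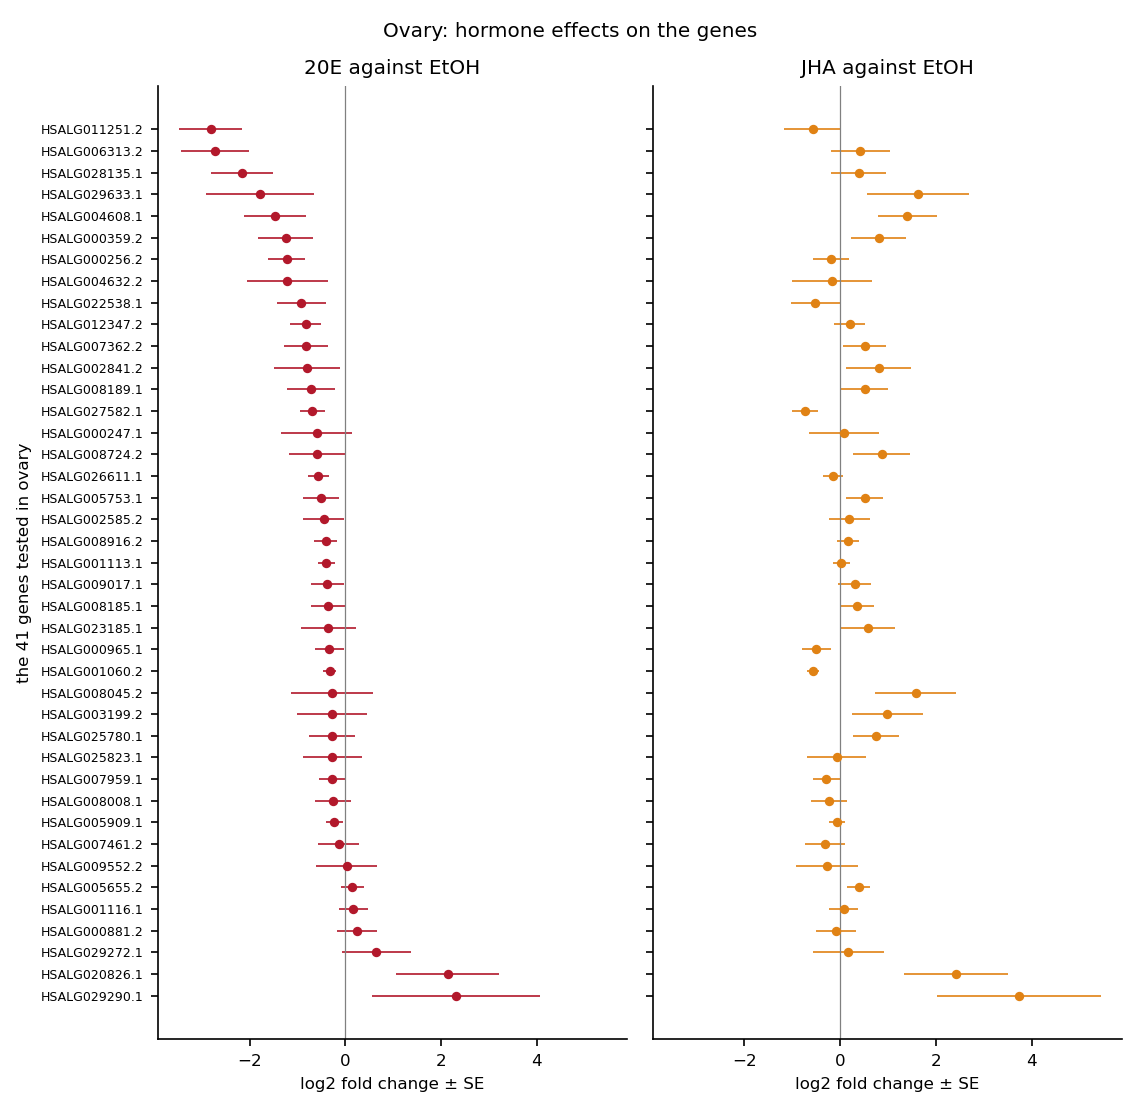
Log2 fold changes with standard errors (edgeR, all 9 ovary libraries) of the 41 genes tested in ovary, for 20E against EtOH (left) and JHA against EtOH (right), in the order of the 20E values. With 20E 34 of the 41 points lie below 0 and with JHA 15 of the 41. No gene passed after adjustment in either comparison.

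The 46 genes were set beside the genes that met the criteria in a single tissue. In ovary with 20E, 157 of 220 tested genes of the brain list without the 46 were below 0, with a median log2 fold change of -0.21. Of the fat body list without the 46, 193 of 317 were below 0, with a median of -0.10. Of the genes higher with 20E in both tissues, 19 of 75 were below 0, with a median of 0.22. The 34 of 41 and the median of -0.40 given above thus had the same sign as both single-tissue lists and were the larger in size, a difference between lists that was not tested.

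In ovary 30 of the 46 genes had a higher mean with JHA than with EtOH. Of the 41 tested, 15 had a log2 fold change below 0, with a median of 0.20, against 0.02 over all genes, and none passed with edgeR (0% of 11418 genes) or in any of 13 alternative analyses. DESeq2, one of these, called 0.035% of all genes as lower. At an unadjusted p under 0.05, 3 of the 41 were found, 2 of them lower, where 1.39% of all genes were lower. Every JHA library lay below every EtOH library in 3 (5.55% of all genes) and above in 1 (11.2% of all genes). JHA replicate 1 decided the sign. Without it 27 of 41 were below 0 and the median was -0.11, and this library was the highest JHA ovary for 27 of the 46 genes. In it the median log2 level of the 46 genes was 0.71 above the EtOH mean, where the other JHA ovaries lay at -0.19 and 0.07.

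HSALG001060.2 had the smallest p with JHA in ovary, at 82.0, 89.5 and 87.6 CPM in JHA ovaries, against 116, 126 and 126 CPM in EtOH ovaries, without overlap (log2 fold change -0.56, SE 0.13, unadjusted p = 0.00197, adjusted p = 0.825 with edgeR). HSALG027582.1, at the JHA values given above and 31.0, 21.8 and 31.7 CPM in EtOH ovaries, had a log2 fold change of -0.73 (SE 0.27, adjusted p = 0.825 with edgeR). On the other side, HSALG004608.1 was at 16.4, 2.64 and 5.96 CPM in JHA ovaries, against 1.90, 2.91 and 4.02 CPM in EtOH ovaries (log2 fold change 1.41, SE 0.61, unadjusted p = 0.0463, adjusted p = 0.825 with edgeR). HSALG020826.1 was at 3.04, 0.659 and 6.47 CPM in JHA ovaries, with 31, 8 and 63 reads (log2 fold change 2.42, SE 1.09, adjusted p = 0.825 with edgeR).

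Set against JHA in ovary, 20E gave lower values for 32 of the 41 genes, with a median of -0.69 and -0.005 over all genes. None passed with edgeR (0% of 11418 genes), DESeq2 called 2, both lower with 20E (0.219% of all genes), and 15 of the 41 had an unadjusted p under 0.05, all lower with 20E (2.49% of all genes). Every 20E library lay below every JHA library in 7 (3.55% of all genes) and above in 0 (2.71%). Without JHA replicate 1 the median was -0.28, with 38 of 41 below 0. HSALG006313.2 and HSALG004608.1 had log2 fold changes of -3.15 (SE 0.71) and -2.88 (SE 0.65) and an adjusted p of 0.536 each with edgeR. HSALG004608.1 was at 0.692, 1.10 and 1.50 CPM in 20E ovaries, below each of its JHA values. Of the genes with higher values in 20E than in JHA ovaries, the smallest p-values were those of HSALG001060.2, at 87.0, 95.7 and 119 CPM in 20E ovaries (log2 fold change 0.23, adjusted p = 0.969 with edgeR), and HSALG000881.2, at 26.0, 30.1 and 13.8 CPM in 20E ovaries and 8.91, 23.2 and 24.3 CPM in JHA ovaries (log2 fold change 0.32, and -0.03 without JHA replicate 1).

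**Figure D4:**
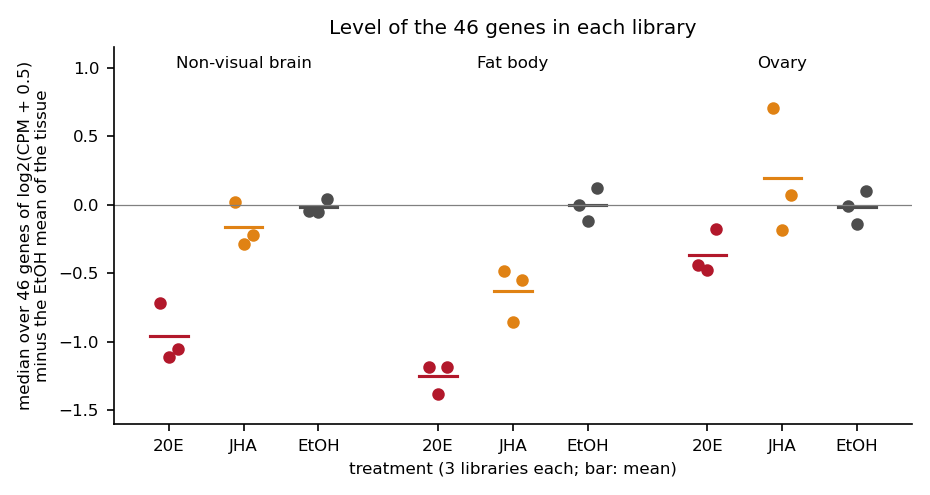
Each point is 1 library, at the median over the 46 genes of log2(CPM + 0.5) minus the EtOH mean of the same tissue, and bars are means of 3 libraries. In brain the 20E libraries lie at -1.11 to -0.71 and the JHA libraries at -0.28 to 0.02. In fat body the 20E libraries lie at -1.38 to -1.18 and the JHA libraries at -0.86 to -0.49. In ovary the 20E libraries lie at -0.48 to -0.17 and the JHA libraries at -0.19 to 0.71. Brain and fat body values with 20E follow from the selection.

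In brain, the JHA mean lay between the 20E and EtOH means for 33 genes, above the EtOH mean for 11 and below the 20E mean for 2. Tested against EtOH, 0 of the 46 passed with edgeR (0% of 12379 genes), with 7 at an unadjusted p under 0.05, all lower with JHA, where 1.87% of all genes were. Every JHA library lay below every EtOH library in 8 (3.89% of all genes) and above in 0 (2.59%). The median log2 fold change was -0.16, with 35 of 46 below 0, against -0.01 over all genes. Without EtOH replicate 3 and JHA replicate 1 the median was -0.24 and 0 passed. The choice required the EtOH libraries to be high and the 20E libraries to be low, so negative values against EtOH, and JHA means between the other 2, are favoured by the choice itself.

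The smallest p-values for JHA in brain belonged to 2 genes near their 20E level. HSALG005655.2 had 21.3, 27.7 and 19.9 CPM in 20E brains, 30.0, 19.9 and 26.1 CPM in JHA brains and 51.6, 35.3 and 55.3 CPM in EtOH brains. JHA and 20E values overlapped, and both lay below EtOH (JHA against EtOH, log2 fold change -0.90, SE 0.20, unadjusted p = 0.00133, adjusted p = 0.657 with edgeR). HSALG001060.2 had 5.12, 4.74 and 17.8 CPM in 20E brains, 9.56, 3.34 and 4.46 CPM in JHA brains and 33.0, 19.5 and 26.4 CPM in EtOH brains (JHA against EtOH, log2 fold change -2.18, SE 0.54, unadjusted p = 0.00261, adjusted p = 0.859 with edgeR). DESeq2 and limma voom with library weights each called these 2 genes, where they called 0.0889% and 0.105% of all genes as lower. HSALG011251.2 was also low, at 1.16, 1.92 and 1.26 CPM in JHA brains. Of the genes above EtOH, the smallest p-values were those of HSALG004608.1, at 5.45, 2.43 and 5.72 CPM in JHA brains, against 3.13, 1.12 and 2.27 CPM in EtOH brains (log2 fold change 1.07, SE 0.49, adjusted p = 1 with edgeR), and HSALG008185.1, at 636, 586 and 533 CPM in JHA brains, against 474, 432 and 579 CPM in EtOH brains (log2 fold change 0.24, SE 0.18, adjusted p = 1 with edgeR).

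In fat body, 6 of the 46 genes were lower with JHA than with EtOH at an adjusted p under 0.05 with edgeR, and none was higher. Of all 9870 genes tested, 0.648% were lower at that level. The JHA mean lay between the 20E and EtOH means for 31 genes, above the EtOH mean for 6 and below the 20E mean for 9. At an unadjusted p under 0.05 there were 24 genes, all lower with JHA (8.62% of all genes). In 22 genes every JHA library was below every EtOH library (7.21% of all genes), and in 0 every one was above (12.3%). The median log2 fold change was -0.86, with 41 of 46 below 0, against -0.02 over all genes. As in brain, the choice required the solvent libraries to be high and the 20E libraries to be low. Values and calls below EtOH are therefore favoured by the choice itself, and the counts against all genes are a description. The count moved with single libraries, as did the count over all genes. Leaving out JHA replicate 1, 2 or 3 gave 1, 3 or 0 genes. Of all genes, 7 of 10092, 21 of 10154 and 2 of 10085 were then called as lower. Leaving out EtOH replicate 1, 2 or 3 gave 5, 3 or 2, where 32 of 10113, 40 of 10143 and 32 of 10094 genes were called as lower. DESeq2 called 16 genes, all lower with JHA, where it called 3.44% of all genes as lower.

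The largest of these falls was that of HSALG007590.2, with 4.97, 9.95 and 32.4 CPM in 20E fat bodies, 2.79, 5.80 and 1.77 CPM in JHA fat bodies and 100.003, 98.5 and 92.4 CPM in EtOH fat bodies. The 3 EtOH libraries were close together and far above the rest (JHA against EtOH, log2 fold change -4.84, SE 0.73, adjusted p = 0.0255 with edgeR). The call held in 7 of 12 alternative analyses. HSALG000256.2 had 23.6, 6.85 and 18.8 CPM in 20E fat bodies, 9.25, 18.4 and 20.3 CPM in JHA fat bodies and 83.3, 72.3 and 104 CPM in EtOH fat bodies, so both hormones gave overlapping values (JHA against EtOH, log2 fold change -2.49, SE 0.46, adjusted p = 0.0462 with edgeR). This call held in 4 of 12. In brain the same gene had 96.1, 70.2 and 86.4 CPM with 20E, 225, 188 and 158 CPM with JHA and 142, 176 and 226 CPM with EtOH, where JHA values overlapped with EtOH and lay above 20E. Whether its JHA effect differs between brain and fat body was not tested.

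The remaining 4 of the 6 are named after their values were seen. HSALG001113.1 had 82.6, 54.9 and 77.3 CPM in 20E fat bodies, 29.4, 36.5 and 36.5 CPM in JHA fat bodies and 109.6, 106 and 130.3 CPM in EtOH fat bodies, so every JHA library lay below every 20E library (JHA against EtOH, log2 fold change -1.82, SE 0.20, adjusted p = 0.0105 with edgeR). In brain its JHA values of 87.6, 71.5 and 66.0 CPM overlapped with its EtOH values of 64.0, 64.7 and 78.9 CPM. HSALG002376.1 had 67.0, 61.1 and 44.3 CPM with 20E, 59.5, 40.1 and 51.1 CPM with JHA and 144, 138 and 178 CPM with EtOH in fat body. HSALG005753.1 had 45.5, 26.5 and 30.8 CPM with 20E, 43.9, 26.7 and 29.5 CPM with JHA and 86.4, 77.6 and 139 CPM with EtOH. HSALG004478.1 had 289.7, 213 and 153 CPM with 20E, 395, 284 and 246 CPM with JHA and 793, 725 and 1027 CPM with EtOH. In each of these 3 genes the JHA and 20E libraries overlapped and both lay below EtOH. Their log2 fold changes with JHA were -1.71, -1.68 and -1.55, with adjusted p of 0.0123, 0.0269 and 0.0474 (edgeR).

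In other genes the hormones gave separate values. HSALG000359.2 was at 39.9, 41.3 and 42.0 CPM in JHA fat bodies, against the 17.0, 12.7 and 14.4 CPM of 20E fat bodies given above, and it overlapped with EtOH. HSALG008189.1 was at 3049, 1639 and 2311 CPM and HSALG020826.1 at 2062, 2145 and 1743 CPM in JHA fat bodies, and HSALG020826.1 had 1263, 1146 and 1321 CPM in 20E fat bodies and 1769, 1838 and 2397 CPM in EtOH fat bodies. The genes with the largest positive fold changes for JHA against EtOH in fat body were HSALG004608.1, at 47.8, 51.6 and 11.1 CPM with 20E, 134, 182 and 133 CPM with JHA and 148, 67.8 and 81.8 CPM with EtOH, and HSALG001116.1, at 1.92, 1.49 and 1.79 CPM with 20E, 5.15, 2.51 and 10.0 CPM with JHA and 2.92, 6.01 and 4.20 CPM with EtOH. Neither passed (JHA against EtOH, log2 fold change 0.52 and 0.30, adjusted p = 0.703 and 0.807 with edgeR), and HSALG001116.1 was at -0.32 without JHA replicate 3. HSALG004608.1 thus had its highest mean with JHA and its lowest with 20E in all 3 tissues, where its low 20E values in brain and fat body are part of the choice.

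**Figure D5:**
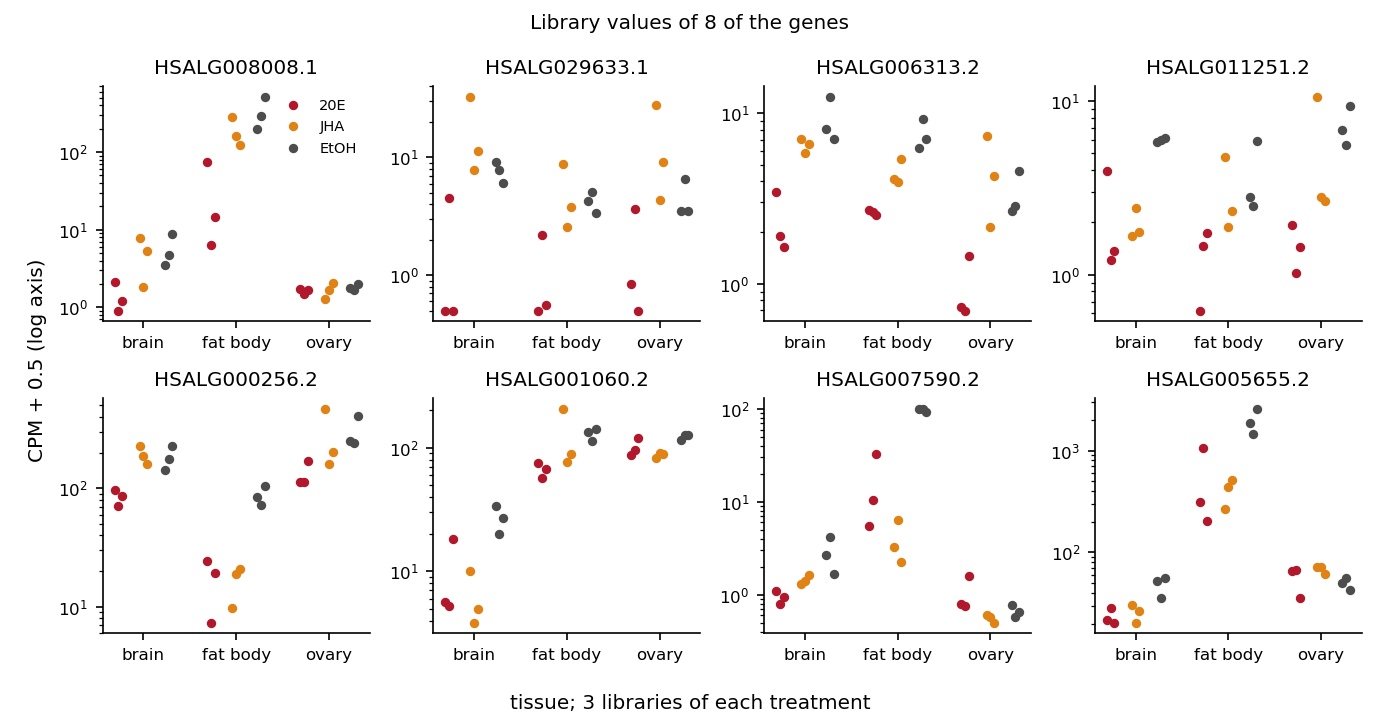
CPM + 0.5 (log axis) of 8 of the 46 genes in every library of brain, fat body and ovary, coloured by treatment (20E, JHA and EtOH from left to right). HSALG006313.2 is lowest with 20E in all 3 tissues. HSALG007590.2 and HSALG000256.2 are low with both hormones in fat body, and HSALG001060.2 in brain.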

How the data were processed

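The authors deposited whole-number read counts per gene. Per the submitters' processing notes, the tools were Trimmomatic, STAR 2.5.3a and HTSeq. The build, the annotation and the strand setting were not given in the sources used here, so overlapping or antisense genes may share reads. The 5 summary lines were dropped. CPM divide a count by its column sum. The 46 genes and the lists beside them were chosen with earlier results of these data known.

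Tests used edgeR 4.0.16 in R 4.3.3 (TMM, filterByExpr, robust glmQLFit, glmQLFTest, Benjamini-Hochberg adjustment over all genes tested, threshold 0.05), over the 9 libraries of a tissue or, between tissues, over 27. Log2 fold changes are edgeR's, with SE computed from the F statistic. Alternatives were DESeq2 1.42.0, its size factors, no filter, a replicate block, the 2 groups alone, limma 3.58.1 voom with library weights, and leaving out libraries. Leaving out brain EtOH replicate 3 alone for the choice was added after seeing the data. Scripts were tested on simulated data.

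Named genes were the 2 with the largest smaller ratio, the 2 with the highest mean CPM over 27 libraries, those around the ratio limit, and per test up to 2 higher and 2 lower, by fold change among those that passed, otherwise by smallest p. No replicates agreed within sampling noise (lowest chi-square per degree of freedom 7.94). Same-numbered brains and fat bodies deviated together with 20E (correlations 0.120 to 0.274) and with EtOH (0.128 to 0.232), as did JHA ovaries with JHA brains (0.191 to 0.272) and fat bodies (0.115 to 0.154), so numbers may mark ants there. No 2 treatments compared by a test were paired.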

Additional observations from a re-analysis of the deposited data

Results flagged for a closer look

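HSALG005655.2 differed between JHA and EtOH in opposite directions in different tissues. Its JHA libraries lay below its EtOH libraries in brain (30.0, 19.9 and 26.1 CPM in JHA brains, against 51.6, 35.3 and 55.3 CPM in EtOH brains) and in fat body (269, 435 and 518 CPM in JHA fat bodies, against 1847, 1446 and 2577 CPM in EtOH fat bodies). In ovary every JHA library lay above every EtOH library, at 70.9, 71.1 and 60.3 CPM in JHA ovaries (mean 67.4 CPM), against 49.9, 56.0 and 42.0 CPM in EtOH ovaries. Such a separation upwards was found in 11.2% of all genes tested in ovary. The difference between tissues was not tested. The brain and fat body solvent values are those on which the gene was chosen, the ovary values are not. With 3 libraries per group, single values were not searched for outliers within a group.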

How the results depend on the processing

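The number of genes meeting the criteria was 18 with ratios of at least 2, 28 with an EtOH mean of at least 5 CPM, and 41 to 126 without 1 replicate number, against 46. It was 72 and 90 without EtOH replicate 1 and 2, 126 and 79 without 20E replicate 1 and 3, and 59 (40 of the 46 among them) with TMM library sizes. DESeq2 called 16 of the genes for JHA in fat body (edgeR 6), 2 for JHA in brain, 2 for 20E in ovary and 2 for 20E against JHA in ovary (edgeR 0 each). With library weights, limma voom called 2 for JHA in brain and 10 for 20E in ovary, with a median of -0.66 there, and edgeR called 10 for 20E in ovary without the 2 ovary libraries that stood apart. Without 1 library, the fat body JHA count ran from 0 to 5 and its median from -0.91 to -0.69. Over all genes, 2 to 40 were then called as lower. Medians then ran from -0.94 to -0.28 for 20E against JHA in ovary, -1.17 to -0.30 for ovary against brain and -2.07 to -1.33 for ovary against fat body. The sign turned for HSALG001116.1 for JHA in fat body (-0.32 without JHA replicate 3, at most 0.70 without another library) and for HSALG000881.2 for 20E against JHA in ovary (-0.030 without JHA replicate 1, at most 0.60 without another library). The causes were not tested.

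With the replicate number as a block (replicate block), 4 genes passed for JHA in fat body and 0 for JHA in brain and each ovary comparison, where medians were -0.43 for 20E, 0.21 for JHA and -0.60 for 20E against JHA. Between treatments, same-numbered libraries had correlations from -0.58 to 0.45. They deviated together for 20E and JHA in fat body (0.134 to 0.416), which no test compared. For the treatments compared by a test the block stands for a number alone. Between tissues the block was fitted in the 2 groups compared alone. For brain against fat body it called 36 of 46 (8427 of 11865 genes). For ovary against brain it called 28 of 44 (7614 of 11989 genes), and for ovary against fat body 34 of 46 (6326 of 10926 genes). The 2 groups alone without the block gave 36, 28 and 30, and the fit of all 27 libraries 35, 32 and 37. Of 398 values of named genes under alternatives, 371 kept direction and side of the threshold. Those between tissues all did. The calls of HSALG007590.2 and HSALG000256.2 for JHA in fat body held in 7 and 4 of 12. With 3 libraries per group and 13 genes under 10 reads in some library, small changes of low genes were not detectable at this depth.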

Other observations

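HSALG029633.1 varied with the replicate number in the same way in all 3 tissues among 20E and among JHA libraries. Among 20E libraries replicate 2 was highest everywhere, at 4.04 CPM in brain, 1.68 CPM in fat body and 3.18 CPM in ovary, while replicates 1 and 3 were between 0 and 0.346 CPM. Among JHA libraries replicate 1 was highest, with 32.3, 7.29 and 10.9 CPM in brain, 8.26, 2.09 and 3.28 CPM in fat body and 27.4, 3.87 and 8.73 CPM in ovary. Among EtOH libraries replicate 1 was highest in brain and replicate 2 in fat body and ovary, with 8.68, 7.32 and 5.62 CPM in brain, 3.80, 4.59 and 2.90 CPM in fat body and 2.98, 6.05 and 2.99 CPM in ovary.

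HSALG007590.2, low with both hormones in fat body, was near 0 in ovary, with 5, 4 and 14 reads in 20E ovaries, 1, 1 and 0 reads in JHA ovaries and 4, 1 and 2 reads in EtOH ovaries. HSALG002376.1, which passed with JHA in fat body, had 47 reads in ovary EtOH replicate 1 and at most 8 in any other ovary library.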
